A study of Mus musculus with 8 samples.

Results

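Of the 129304 regions in a deposited table of H3K27ac signal in mouse microglial nuclei, 7829 lay on chromosomes 1 to 19, more than 1000 bp from the nearest transcription start, with an LTR retroelement named in their annotation. These 7829 distal LTR regions were 7.94% of the 98640 distal regions on the autosomes. Each region was 800 bp wide, and the annotation program reads the base at the centre of a region, so that the centre lies in the named element while the flanks can hold other sequence. H3K27ac, the acetylation of histone H3 at lysine 27 that marks active enhancers and promoters, was measured by ChIP-seq in brain nuclei sorted as PU.1+, OLIG2- and NEUN-, which selects microglia. The groups were wild-type (WT) mice and mice lacking Grn (GrnKO), the gene of the lysosomal protein progranulin, all of the C57BL/6 strain and 2 years old. Each genotype had 2 H3K27ac libraries and 2 input libraries of chromatin without immunoprecipitation, and the nuclei of 2 mice were combined for each replicate. The kind of Grn allele and the sex of the mice are not given in the sources used here. The comparison asked how H3K27ac at these elements differed between the genotypes.

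LTR retroelements descend from retroviruses that entered the germ line. A complete copy carries retroviral genes between a pair of long terminal repeats, and recombination between the repeats often leaves a lone LTR, which holds the promoter and enhancer sequences of the former virus. In mouse they fall into ERV1 elements, ERVK elements (which include the IAP elements), ERVL elements, and the ERVL-MaLR elements, short relatives of ERVL that include the MT, ORR1 and MLT1 groups. Most copies are kept silent by KRAB zinc finger proteins with TRIM28 and SETDB1, while some LTRs serve as enhancers in immune cells. By family, 4825 of the regions were ERVL-MaLR, 1585 ERVK, 904 ERVL, 454 ERV1 and 31 Gypsy, and 30 had an uncertain or no family name.

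Sequence was available for the windows of 300 bases that RefSeq gives for gene starts (250 bases before the start to 50 after it), and 61 such windows lay whole inside 60 of the distal LTR regions. The PU.1 letters GAGGAAGT, the core that the microglial factor PU.1 binds, occurred on either strand in 16 of the 61 windows (26.2%). They occurred in 59 of 940 windows inside distal regions outside LTRs (6.28%) and in 3.2% of all 32851 RefSeq start windows. Of the 16 windows, 9 were in ORR1 elements, from 15 ORR1 windows in all, and 7 were among the 46 other windows. The ORR1 stretches are shown because the letters around the PU.1 site also recur between copies. Across the 9 copies, the 20 bases on each side of the site had a median pairwise identity of 52.5%, between 20.0% and 77.5%. In 12 of the 40 flanking positions, at least 7 of the 9 copies had the same base. The following 7 of them, from GRCm38.p6, are written 5′ to 3′ on the strand that reads GAGGAAGT, with the PU.1 letters in capitals.
Gm52717, ORR1A3, chr4:32160936-32160983, minus strand: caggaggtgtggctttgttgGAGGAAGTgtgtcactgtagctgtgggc
Gm32051, ORR1B1, chr5:105409290-105409337, plus strand: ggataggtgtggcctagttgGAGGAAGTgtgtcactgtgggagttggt
Gm38838, ORR1C2, chr6:81446284-81446331, minus strand: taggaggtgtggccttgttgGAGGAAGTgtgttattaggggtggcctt
Gm41609, ORR1A4, chr17:70806028-70806075, minus strand: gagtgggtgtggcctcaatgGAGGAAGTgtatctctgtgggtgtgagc
Gm41508, ORR1B2, chr16:95921253-95921300, plus strand: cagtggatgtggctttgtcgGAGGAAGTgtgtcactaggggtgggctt
Gm42056, ORR1E, chr8:125960220-125960267, plus strand: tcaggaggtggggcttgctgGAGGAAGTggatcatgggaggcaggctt
Gm35891, ORR1D1, chr3:51128957-51129004, minus strand: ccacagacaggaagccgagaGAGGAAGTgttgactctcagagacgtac
The other two were the ORR1B1 stretch at 9630025h16rik and the ORR1B2 stretch at Gm51695. Only 1 of the 9 regions, the ORR1C2 region at Gm38838, had enough H3K27ac to be tested. It held 16.4 and 28.0 normalised tags in WT and 13.6 and 15.7 in GrnKO. The other 8 held at most 16.8 normalised tags in any library. A normalised tag is a sequenced fragment, scaled to 10000000 fragments per library and to the common level of all tested regions.

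The same search covered 6 other motifs on both strands, and letters of different motifs overlapped in 0 of the 61 windows. RUNX letters (TGTGGTT) occurred in 10 windows (16.4%, against 6.60% in the 940 other distal windows and 5.27% of all) and AP-1 letters (TGANTCA) in 9 (14.8%, 9.15% and 7.81%). IRF letters (GAAA, any 2 bases, GAAA) occurred in 4 windows (3.44% of all), C/EBP letters (TTGCNNAA) in 4 (10.8% of all), MEF2 letters (CTA, any 4 bases, TAG) in 1 (3.69% of all) and E-box letters (TCACGTGA) in 0 (0.974% of all). These matches are descriptions of letters and do not show that a factor bound. Of the 60 regions with a start window, 36 could be tested and 6 differed in H3K27ac between the genotypes, where 9.71% of all tested regions did. The 5 windows below are shown because each covers the centre of one of these 6 regions: an MLT1H2 element near Rhob, an RMER10A element near Klhl25, an MLT1L element near Plxnc1 and an MLTR14 element near Bod1, all higher in GrnKO, and an MTD-int element near Zfp648, lower in GrnKO. Capitals mark AP-1 letters in the MLT1H2 window, IRF letters followed by AP-1 letters in the RMER10A window, and C/EBP letters, as read on the other strand, in the MLTR14 window. The MLT1L and MTD-int windows held none of the 7 motifs.
5033421B08Rik, MLT1H2, chr12:8510913-8511212, plus strand: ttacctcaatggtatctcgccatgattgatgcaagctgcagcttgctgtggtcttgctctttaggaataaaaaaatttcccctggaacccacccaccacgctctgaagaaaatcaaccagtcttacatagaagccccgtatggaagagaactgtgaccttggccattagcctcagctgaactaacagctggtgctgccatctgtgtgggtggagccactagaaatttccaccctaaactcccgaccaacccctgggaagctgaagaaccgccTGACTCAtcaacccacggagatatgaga
Gm51489, RMER10A, chr7:75822288-75822587, plus strand: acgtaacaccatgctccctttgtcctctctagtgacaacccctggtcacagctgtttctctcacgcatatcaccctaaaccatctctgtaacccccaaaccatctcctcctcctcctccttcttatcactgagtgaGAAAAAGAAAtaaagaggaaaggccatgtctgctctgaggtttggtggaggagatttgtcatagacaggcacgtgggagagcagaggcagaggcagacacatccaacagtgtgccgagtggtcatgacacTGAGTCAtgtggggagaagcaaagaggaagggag
Gm40744, MLT1L, chr10:94961387-94961686, plus strand: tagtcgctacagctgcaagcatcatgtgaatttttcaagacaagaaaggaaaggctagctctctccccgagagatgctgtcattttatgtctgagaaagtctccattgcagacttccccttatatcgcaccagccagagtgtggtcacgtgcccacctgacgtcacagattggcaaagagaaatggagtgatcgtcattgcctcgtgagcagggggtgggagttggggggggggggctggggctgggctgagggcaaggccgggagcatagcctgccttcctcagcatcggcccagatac
Gm39673, MLTR14, chr11:31716884-31717183, minus strand: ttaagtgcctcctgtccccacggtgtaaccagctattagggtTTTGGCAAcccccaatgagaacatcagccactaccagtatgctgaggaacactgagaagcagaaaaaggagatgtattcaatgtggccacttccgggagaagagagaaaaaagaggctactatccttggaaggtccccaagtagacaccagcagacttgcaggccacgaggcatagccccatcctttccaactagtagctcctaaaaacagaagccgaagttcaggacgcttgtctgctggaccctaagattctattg
Gm46165, MTD-int, chr1:154103613-154103912, plus strand: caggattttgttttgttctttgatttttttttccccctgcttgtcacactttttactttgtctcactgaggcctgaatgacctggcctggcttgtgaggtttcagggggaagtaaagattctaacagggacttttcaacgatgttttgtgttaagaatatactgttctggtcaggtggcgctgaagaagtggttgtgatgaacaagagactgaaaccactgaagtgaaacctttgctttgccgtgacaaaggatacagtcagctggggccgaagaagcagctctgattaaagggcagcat
The MLT1H2 region (chr12:8510766-8511566) held 32.5 and 35.1 normalised tags in WT and 172 and 138 in GrnKO. Both GrnKO libraries were far above both WT libraries (log2 change 2.16, SE 0.25, limma adjusted p = 3.53e-05). The RMER10A region (chr7:75822130-75822930) held 154 and 137 normalised tags in WT and 289 and 349 in GrnKO, again without overlap (log2 change 1.12, SE 0.17, limma adjusted p = 3.16e-04). The MTD-int region (chr1:154103393-154104193) was strong in both genotypes, with 551 and 668 normalised tags in WT and 359 and 396 in GrnKO. Here both GrnKO libraries lay below both WT libraries (log2 change -0.69, SE 0.13, limma adjusted p = 0.00229). No reference genome was used, so the sequences of the other regions are not shown.

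The H3K27ac libraries held 15491643 to 20030832 tags and the inputs 4078179 to 14415969, and 3 tags, taken as the floor of detection, corresponded to 1.5 to 1.94 scaled tags in the H3K27ac libraries. In WT replicate 1, 49.4% of tags fell in listed regions, against 63.3% to 65.7% in the other 3 H3K27ac libraries. The Grn start region held 708 and 553 normalised tags in WT and 6.79 and 6.00 in GrnKO. All 8 microglial markers had a region at their start, summing to 7345 and 8346 normalised tags in WT replicates 1 and 2 and 6385 and 6610 in GrnKO. Of 8 neuronal markers, 4 had such a region, 2 of them (Slc17a7 and Tubb3) at or under the floor in every library, and the sum was 19.5 to 47.9 in every library. Oligodendrocyte markers (6 of 8 with a region) summed to 441 and 353 in WT and 382 and 396 in GrnKO, and astrocyte markers (5 of 8) to 203 to 215 in WT and 192 to 223 in GrnKO. Endothelial markers (3 of 8: Flt1, Kdr and Pecam1) summed to 216 and 235 in WT and 379 and 418 in GrnKO, and markers of border macrophages and monocytes (3 of 8: Mrc1, Ms4a7 and Pf4) to 275 and 299 in WT and 420 and 333 in GrnKO. Their part in the results was not tested, and in bulk nuclei a change in the share of a cell type and a change of acetylation per cell cannot be told apart.

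Distal LTR regions carried less H3K27ac than the other distal regions, at a similar ratio in all 4 libraries. Their mean scaled signal was 0.807 and 0.803 times that of other distal regions in WT and 0.805 and 0.798 times in GrnKO, while in the 4 inputs it was 1.04 to 1.08 times. They held 6.51% and 6.47% of the tags over distal regions in WT and 6.49% and 6.44% in GrnKO. The 2 genotypes overlapped, and the difference of -0.025 percentage points did not pass an exact permutation test (two-sided p = 0.667, where 2 libraries against 2 allow no p under 0.333). The inputs, chromatin without immunoprecipitation, gave a share of 8.24% to 8.49%. By family, the ERVL share was 0.886% and 0.885% in WT and 0.833% and 0.838% in GrnKO, which did not overlap (exact permutation p = 0.333, the smallest possible), and the inputs ranged from 0.831% to 0.962%. The ERVL-MaLR share was 3.75% and 3.74% in WT and 3.77% and 3.74% in GrnKO, and the ERVK and ERV1 shares overlapped between genotypes as well.

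Enough tags for a test were present in 4449 of the 7829 regions (56.8%), against 58.8% of the other distal regions. Of the 3380 that were not tested, 61 held no tag in any H3K27ac library and 611 were at or under 3 tags in all of them. The tested regions had a median of 23.9 and 22.5 normalised tags in WT and 26.3 and 25.6 in GrnKO. H3K27ac differed between the genotypes in 510 of them at a limma adjusted p under 0.05, of which 356 rose and 154 fell in GrnKO. That is 11.5% of the tested regions, where 9.71% of all 80728 tested regions of the table were called (6.8% higher and 2.92% lower) and 11.5% of the 53366 other tested distal regions (8.09% higher and 3.42% lower). The share of calls was near that of other distal regions, and so was the split, with 69.8% of calls higher in LTR regions and 70.3% in other distal regions. The median log2 change over the tested LTR regions was -0.01, with quartiles of -0.43 and 0.55, and over all tested regions it was -0.002. Both GrnKO libraries lay above both WT libraries in 1201 LTR regions (27%, against 27% of all tested regions and 28.5% of other distal regions) and below them in 1153 (25.9%, against 25.6% and 26.5%). In distal regions in LINE elements 180 rose and 116 fell of 2256 tested, and in SINE elements 212 rose and 89 fell of 2659. Regions near each other share tags and are not replicates: the 510 called regions made 322 loci of higher and 134 of lower regions after joining those within 10000 bp.

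When 1 library was left out, the median log2 change of the tested LTR regions stayed between -0.020 and 0.021. In each such fit, the spread comes only from the genotype with 2 libraries. The count of calls therefore does not show which libraries the differences rest on, and it changed more. Without GrnKO replicate 1 it was 91 (84 higher and 7 lower), without GrnKO replicate 2 it was 131 (103 and 28), and without WT replicate 1 or 2 it was 794 and 856. With the authors' library-total scaling only, the median of all tested regions moved to 0.22 and 445 LTR regions were called, 425 higher and 20 lower, so that directions below are relative to the common level of all tested regions.

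**Figure D1:**
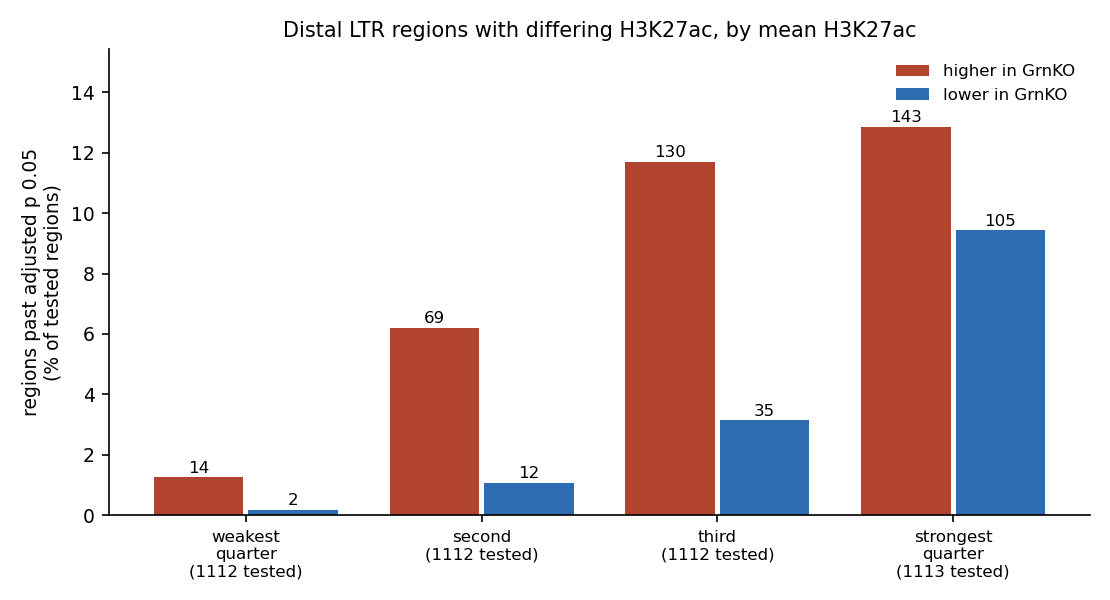
Distal LTR regions past a limma adjusted p of 0.05, as a percent of tested regions (vertical axis), in 4 equal sets of tested regions ordered by mean H3K27ac over the 4 libraries; numbers over the bars are regions. Calls rise from 16 of 1112 regions in the weakest set to 248 of 1113 in the strongest, where 105 of them were lower in GrnKO.

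Calls became more frequent with the level of H3K27ac. Of 4 equal sets of tested regions ordered by mean level, the weakest had 16 calls, the second 81, the third 165 and the strongest 248. The balance of directions shifted across these sets, as the plot of calls by mean H3K27ac shows: 87.5% of calls were higher in GrnKO in the weakest set, 85.2% and 78.8% in the middle sets and 57.7% in the strongest. Over all levels, 9.71% of all tested regions and 11.5% of other distal ones were called. Regions outside LTRs were not split by level, so neither trend is shown to be particular to LTR regions. A change of at least 2-fold was seen in 298 of the 356 higher LTR regions and in 57 of the 154 lower ones. Among called distal regions outside LTRs, it was seen in 3343 of 4315 higher and 651 of 1823 lower ones. Intergenic LTR regions were called in 322 of 2421 (13.3%) and intronic ones in 188 of 2028 (9.27%), and outside LTRs the shares were 13% and 10.9%. By distance to the nearest start, 151 of 1261 regions were called within 10000 bp (12%) and 53 of 474 beyond 100000 bp (11.2%).

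**Figure D2:**
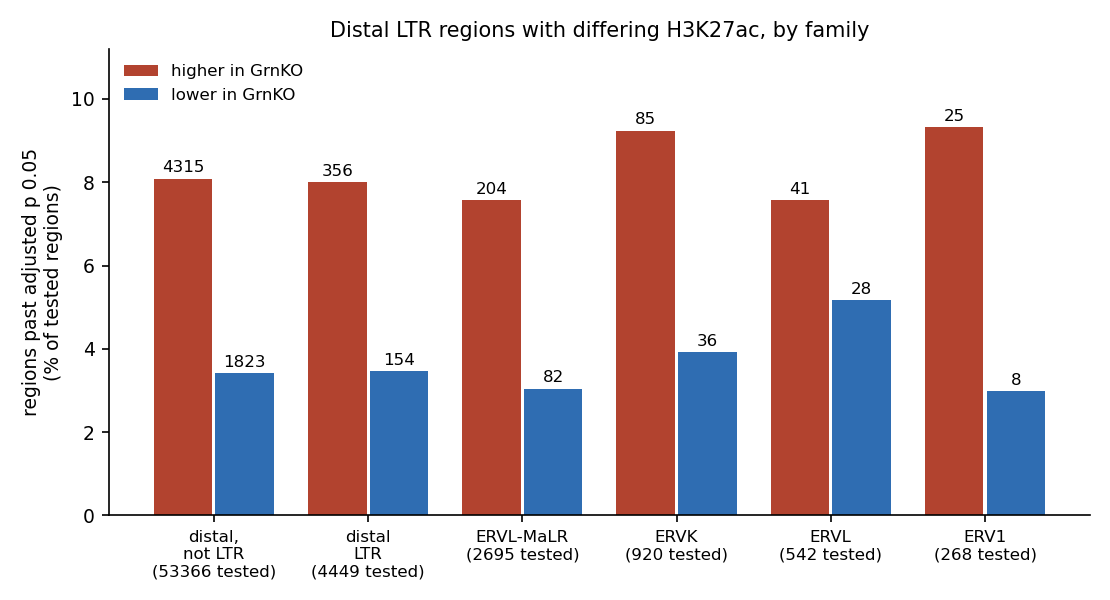
Regions past a limma adjusted p of 0.05, as a percent of tested regions (vertical axis), for distal regions outside LTRs, all distal LTR regions and the 4 large families; numbers over the bars are regions. Higher regions outnumber lower ones in each family, and ERVL has the smallest gap, with 41 higher and 28 lower.

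All 4 large families contained regions that rose and regions that fell. ERVL-MaLR had 286 calls among 2695 tested regions (204 higher, 82 lower), ERVK 121 among 920 (85 and 36), ERVL 69 among 542 (41 and 28) and ERV1 33 among 268 (25 and 8). These shares of 10.6%, 13.2%, 12.7% and 12.3% lie near the 9.71% of all tested regions and the 11.5% of other distal regions that were called. The family medians were -0.002, -0.01, -0.04 and -0.06 on the log2 scale, each within 0.06 of the median of all tested regions. With the authors' scaling alone, these medians were 0.16 to 0.21, and the ERVL and ERV1 families had 0 lower calls. In the same order of families, the calls numbered 53, 23, 11 and 3 without GrnKO replicate 1 and 75, 33, 16 and 6 without GrnKO replicate 2. Gypsy elements had 1 call among 13 tested regions, and the regions with an uncertain family none among 11 by limma, edgeR or DESeq2, with 3 at an unadjusted limma p under 0.05. Regions in the internal, formerly protein-coding part of an element were called in 40 of 340 cases (21 higher, 19 lower), and regions in LTRs proper in 470 of 4109 (335 and 135).

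The higher region with the smallest p was an MLT1B element, of the ERVL-MaLR family, 119 kb from the start of Usp6nl, a GTPase-activating protein of RAB5 (chr2:6471647-6472447, intergenic). It held 102 and 72.0 normalised tags in WT and 339 and 383 in GrnKO. Both GrnKO libraries were more than 3 times both WT libraries (log2 change 2.06, SE 0.19, limma adjusted p = 6.07e-06). The ERVL-B4-int element near Nup50, a nuclear pore gene (chr15:84916374-84917174, intergenic), held 21.9 and 19.4 normalised tags in WT and 149.9 and 168 in GrnKO (log2 change 2.89, SE 0.27, limma adjusted p = 6.80e-06). The RMER19C element whose nearest gene is Gm12669 (chr7:137709497-137710297, intergenic) held 30.5 and 25.7 normalised tags in WT and 169.7 and 182 in GrnKO (log2 change 2.61, SE 0.25, limma adjusted p = 7.38e-06). In each of these regions both GrnKO libraries lay above both WT libraries.

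Another 5 regions completed the 8 with the smallest p. The MTD element in intron 1 of 32 of Dscam, a cell adhesion gene (chr16:97061715-97062515), held 20.3 and 14.7 normalised tags in WT and 133 and 148 in GrnKO, a change of 2.95 ± 0.30 (SE) on the log2 scale. The MTC element near Lyst, a regulator of lysosome traffic (chr13:13536918-13537718), held 47.3 and 39.3 normalised tags in WT and 196 and 193 in GrnKO, a change of 2.15 ± 0.23 (SE). The MLTR11B element near Ubl3 (chr5:148494097-148494897) held 56.3 and 66.0 normalised tags in WT and 223 and 245 in GrnKO, a change of 1.92 ± 0.20 (SE). In all 3, the genotypes were far apart, and the Dscam region was the weakest in WT. The ORR1E element in intron 2 of 4 of Akirin1 (chr4:123742685-123743485) held 45.4 and 35.6 normalised tags in WT and 208 and 174 in GrnKO, a change of 2.21 ± 0.24 (SE). The MTD element near Hey1, a repressor in the Notch pathway (chr3:8746936-8747736), held 43.4 and 38.5 normalised tags in WT and 209.6 and 166 in GrnKO, a change of 2.16 ± 0.23 (SE). GrnKO replicate 1 was the higher of the GrnKO libraries in both. The limma adjusted p of these 5 regions ranged from 1.07e-05 to 1.82e-05, and inputs at the 8 regions were between 0 and 35.3 scaled tags.

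**Figure D3:**
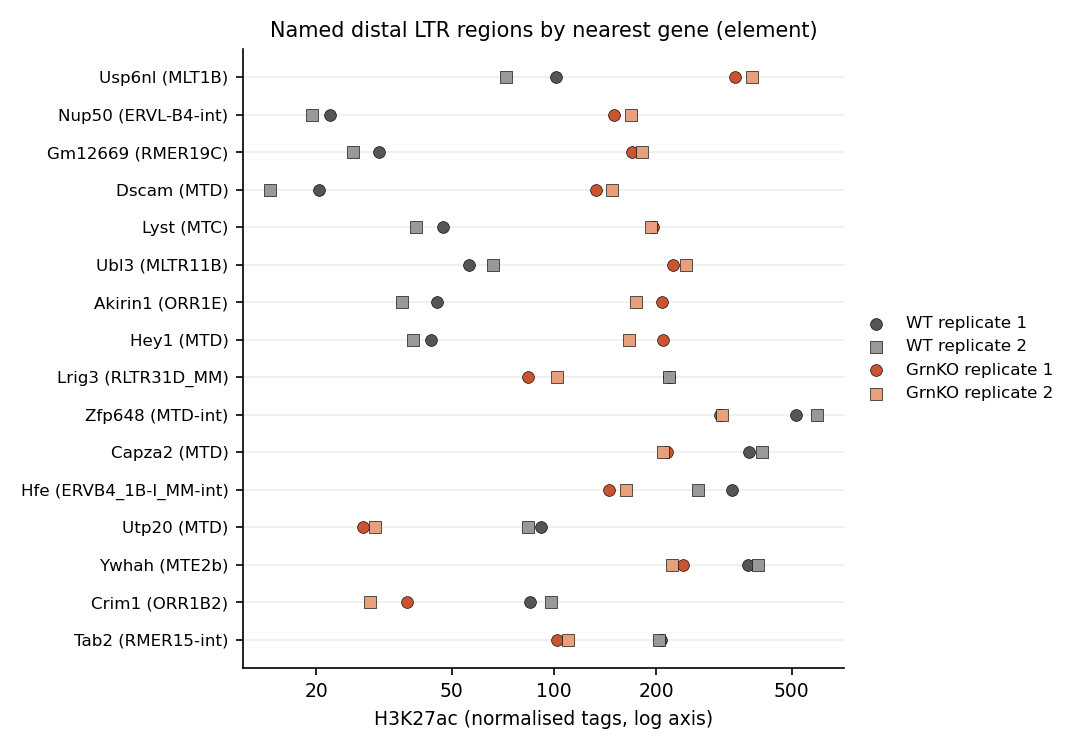
H3K27ac in normalised tags (horizontal log axis) in each library at the 8 higher and 8 lower distal LTR regions with the smallest p, 1 per nearest gene. Points are single libraries, and in every region the pair of GrnKO points lies wholly to one side of the pair of WT points.

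The 8 lower regions had smaller changes than the 8 higher ones. The RLTR31D_MM element, an ERVK LTR, 222 kb from the start of Lrig3 (chr10:125744049-125744849, intergenic) held 218 and 218 normalised tags in WT and 83.7 and 102 in GrnKO. WT libraries were nearly equal and more than 2 times the GrnKO libraries (log2 change -1.23, SE 0.19, limma adjusted p = 4.62e-04). The MTD-int element near Zfp648 (chr1:154104015-154104815) held 513 and 592 normalised tags in WT and 307 and 312 in GrnKO (log2 change -0.83, SE 0.13, limma adjusted p = 4.62e-04). It overlaps the MTD-int region whose window is printed above. The MTD element near Capza2, which encodes an actin capping subunit (chr6:17609861-17610661), held 375 and 408 normalised tags in WT and 215 and 209 in GrnKO, a change of -0.88 ± 0.14 (SE) on the log2 scale. The ERVB4_1B-I_MM-int element near Hfe, an iron regulator (chr13:23717365-23718165), held 333 and 265 normalised tags in WT and 145 and 163 in GrnKO, a change of -0.94 ± 0.17 (SE). WT replicate 1 was the highest library at Hfe and WT replicate 2 at Capza2.

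The other four lower regions showed the same pattern at different levels. The MTD element in intron 19 of 61 of Utp20, a ribosome biogenesis gene (chr10:88799073-88799873), held 91.5 and 84.1 normalised tags in WT and 27.4 and 29.8 in GrnKO, a change of -1.58 ± 0.29 (SE). This was the largest fall of the 8. The MTE2b element near Ywhah, a 14-3-3 gene (chr5:33002621-33003421), held 373 and 399 normalised tags in WT and 239 and 223 in GrnKO, a change of -0.74 ± 0.14 (SE). The ORR1B2 element near Crim1 (chr17:77932994-77933794) held 85.3 and 98.2 normalised tags in WT and 37.1 and 28.8 in GrnKO, a change of -1.46 ± 0.28 (SE). The RMER15-int element near Tab2, an adaptor of the TAK1 kinase (chr10:8021828-8022628), held 206 and 203 normalised tags in WT and 102 and 110.3 in GrnKO, a change of -0.94 ± 0.18 (SE). The groups did not overlap in any of them, and the limma adjusted p of the last 6 regions named here ranged from 6.97e-04 to 0.00304. Called regions picked by the naming rule or for a RefSeq start window numbered 53. Many of them no longer passed the threshold without GrnKO replicate 1 or without GrnKO replicate 2.

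In the ERV1 family, the higher region with the smallest p was an LTR48 element near Ndfip1, an adaptor of ubiquitin ligases (chr18:38404031-38404831), which held 8.99 and 12.3 normalised tags in WT and 81.5 and 66.9 in GrnKO (log2 change 2.70, SE 0.38, limma adjusted p = 1.79e-04). The lower one was an RLTR30D2_MM element near Tlr3, a sensor of double-stranded RNA (chr8:45415739-45416539), which held 393 and 368 normalised tags in WT and 218 and 247 in GrnKO (log2 change -0.71, SE 0.15, limma adjusted p = 0.00401). The genotypes did not overlap at either, and GrnKO input replicate 2 held 63.3 scaled tags at the Tlr3 region. The 3 other called regions with a RefSeq start window also rose. They were an MLT1N2 element near Fam46c (2.73 ± 0.30 (SE)), an MLT1L element near Plxnc1, a semaphorin receptor (2.22 ± 0.29 (SE)), and an MLTR14 element near Bod1 (1.2 ± 0.31 (SE)).

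Among element names, RMER19B stood at the upper end. The 4449 tested regions carried 422 element names, and 38 names had at least 20 tested regions. RMER19B, a name of the ERVK family, had 92 tested regions and 25 calls (22 higher, 3 lower), which is 27.2%, where 9.71% of all tested regions and 11.5% of other distal regions were called. Its median log2 change was 0.38, and 44 of the 92 regions had both GrnKO libraries above both WT libraries while 17 had both below. Median levels were 28.4 and 24.1 normalised tags in WT and 43.3 and 44.5 in GrnKO. Regions of this name held 2.24% and 2.30% of the tags over distal LTR regions in WT and 2.79% and 2.83% in GrnKO. These shares did not overlap (exact permutation p = 0.333, the smallest possible). However, RMER19B was picked by its median in the same libraries, so the shares are no separate evidence. The inputs gave 0.724% to 1.44% for 1.49% of the regions. RMER19C had 6 of 15 regions called, RMER19A 2 of 15 and RMER19B2 2 of 7, all higher. The whole RMER19 group, put together after these values were seen, had 35 calls in 129 tested regions (32 higher, 3 lower), or 27.1%, against the same background. The median of RMER19B stayed between 0.31 and 0.63 in every alternative that was run, while its calls fell to 8 without GrnKO replicate 1 and to 10 without GrnKO replicate 2. No test compared this name with the others.

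The RMER19 regions given next were picked with their values known. The RMER19B region whose nearest gene is A530065N20Rik (chr13:59968338-59969138) held 0.78 and 4.19 normalised tags in WT and 82.0 and 85.6 in GrnKO (log2 change 4.8, SE 0.56, limma adjusted p = 3.53e-05). WT replicate 1 was under 3 tags there, so that this fold change depends on the pseudocount. The RMER19B region 155 kb from the start of Cxcr4, a chemokine receptor (chr1:128747152-128747952), held 14.5 and 11.8 normalised tags in WT and 90.5 and 99.9 in GrnKO (log2 change 2.77, SE 0.34, limma adjusted p = 5.00e-05). The RMER19B2 region near Cd5l, a macrophage scavenger-receptor protein (chr3:87331771-87332571), held 16.4 and 5.24 normalised tags in WT and 114 and 78.9 in GrnKO (log2 change 3.20, SE 0.44, limma adjusted p = 1.54e-04). In all 3 regions, GrnKO was well above WT. The 3 RMER19B regions that fell were 2 overlapping ones near Marcks, an actin-binding substrate of protein kinase C, and 1 near Sik2, a kinase. The stronger Marcks region (chr10:37248589-37249389) held 331 and 364 normalised tags in WT and 207 and 234 in GrnKO (log2 change -0.65, SE 0.15, limma adjusted p = 0.00909).

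**Figure D4:**
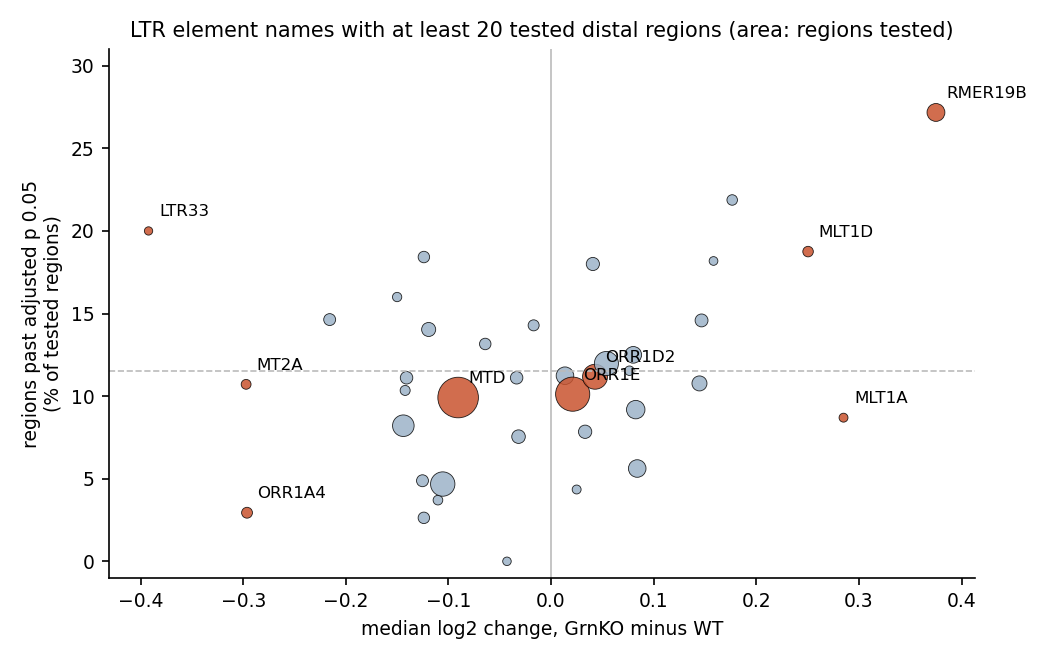
Median log2 change of tested regions (horizontal axis) and percent of them past a limma adjusted p of 0.05 (vertical axis) for the 38 LTR element names with at least 20 tested distal regions; area shows the number tested, the dashed line is the percent over other distal regions, and orange points are the names given in the text. RMER19B lies at the upper right, at 0.38 and 27.2%.

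The other names at the upper end were MLT1A (median 0.29, 2 of 23 regions called) and MLT1D (0.25, 6 of 32), and without WT replicate 1 the MLT1A median was 0.014 and the MLT1D median turned to -0.09. Without GrnKO replicate 1 the MLT1A median was 0.091, and without GrnKO replicate 2 the MLT1D median was 0.16. The MLT1D median was 0.070 with no filter on weak regions and 0.093 with a mean of at least 10 scaled tags. The MLT1A median was 0.18 and 0.12 in these settings. At the lower end were LTR33 (-0.39, 4 of 20), MT2A (-0.30, 3 of 28, all lower) and ORR1A4 (-0.30, 1 of 34). These 3 medians stayed below that of all tested regions in every alternative that was run, but LTR33 was at -0.16 without GrnKO replicate 1 and MT2A at -0.18 without WT replicate 2. The ORR1A4 median was -0.52 without WT replicate 1 and -0.029 with no filter on weak regions (-0.12 by edgeR with no filter). By limma, 0 regions of MLT1A, LTR33, MT2A and ORR1A4 were called without GrnKO replicate 1, and without GrnKO replicate 2 there were 0 of MLT1A, 1 of LTR33, 0 of MT2A and 1 of ORR1A4. MLT1D had 1 call without GrnKO replicate 1 and 1 without GrnKO replicate 2. The names with most regions lay near the background: MTD had 47 of 474 called (median -0.09), ORR1E 34 of 336 (0.02) and ORR1D2 20 of 179 (0.04). Without GrnKO replicate 1 these 3 names had 5, 5 and 3 calls, and without GrnKO replicate 2 they had 12, 8 and 1. All MT2 names together, grouped after their values were seen, had 51 tested regions with a median of -0.35 and 6 calls, 5 of them lower. An MT2A region near Selplg (chr5:113839664-113840464) held 314 and 282 normalised tags in WT and 173 and 197 in GrnKO (log2 change -0.69, SE 0.16, limma adjusted p = 0.00991). Both WT libraries were above both GrnKO libraries there. The 1 MT2 region that rose was near Ifnar1, a type I interferon receptor subunit, at 16.0 and 3.67 normalised tags in WT and 33.1 and 30.5 in GrnKO.

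IAP elements, which include recently active ERVK copies, had 50 regions, of which 30 were tested and none passed by limma, edgeR or DESeq2, with 4 at an unadjusted limma p under 0.05. Their median log2 change was -0.05, and median levels were 55.5 and 57.9 normalised tags in WT and 35.8 and 42.7 in GrnKO. Both GrnKO libraries were above WT in 6 of the 30 regions and below in 7. The region with the smallest p, an IAPLTR1_Mm element near Eps8l1 (chr7:4460302-4461102), held 59.8 and 75.7 normalised tags in WT and 26.3 and 41.5 in GrnKO (log2 change -1.0, SE 0.32, limma adjusted p = 0.0535), which missed the threshold. None of 12 tested regions in MERVL-named elements passed by limma or edgeR, 1 did by DESeq2, and 1 had an unadjusted limma p under 0.05. Recent copies of such elements can be nearly identical, and how reads that fit several copies were placed is not given in the sources used here. The ages of the copies tested here were not assessed.

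LTR regions whose nearest gene encodes a lysosomal protein or a regulator of lysosomal genes mostly rose where they were called. The list had 75 genes, 22 of them nearest to a total of 39 tested LTR regions, and 15 of these regions were called, 12 higher near 8 genes and 3 lower, where 6.8% of all tested regions were higher and 2.92% lower. Other distal regions nearest to the same list had 104 higher and 11 lower calls among 560. The medians were 0.33 in LTR regions and 0.16 in other distal regions, against -0.002 over all tested regions. The nearest gene is a label by distance and does not show that a region acts on it.

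A pair of ORR1 elements upstream of Hpse, which encodes the endoglycosidase heparanase, had the largest changes on this list. The ORR1F region (chr5:100725737-100726537) held 2.74 and 13.4 normalised tags in WT and 62.2 and 53.5 in GrnKO (log2 change 3.00, SE 0.54, limma adjusted p = 0.00163). The ORR1D2 region (chr5:100728548-100729348) held 3.52 and 4.19 normalised tags in WT and 43.3 and 31.4 in GrnKO (log2 change 2.97, SE 0.55, limma adjusted p = 0.00194). WT was low in both regions, with WT replicate 2 at the ORR1F region the highest WT value, and GrnKO was several-fold above it, while WT input replicate 2 held 22.5 scaled tags at the ORR1F region and GrnKO input replicate 1 held 22.5 at the ORR1D2 region. The RMER10A element 2.85 kb from the start of Cd63, a tetraspanin of late endosomes and lysosomes (chr10:128905669-128906469), held 17.2 and 11.0 normalised tags in WT and 74.1 and 54.7 in GrnKO (log2 change 2.13, SE 0.38, limma adjusted p = 0.00147). All inputs were 0 there. The MLT1D element in intron 1 of 6 of Tfec, a transcription factor of the MiT/TFE family (chr6:16883295-16884095), held 23.1 and 8.12 normalised tags in WT and 69.9 and 57.9 in GrnKO (log2 change 2.12, SE 0.43, limma adjusted p = 0.00389). The RMER15 element in intron 1 of 16 of Fnip2, a folliculin partner (chr3:79551861-79552661), held 33.2 and 28.8 normalised tags in WT and 88.2 and 91.8 in GrnKO (log2 change 1.51, SE 0.28, limma adjusted p = 0.00207). GrnKO was above WT in each of these regions.

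The other lysosome-list regions that rose were seen outside the naming rule and are given as values. They lay near Ctsh (cathepsin H; 2.03 ± 0.52 (SE)), Manba (beta-mannosidase; 2.22 ± 0.49 (SE)), Fnip2 (an ORR1E element; 2.29 ± 0.67 (SE)), Lgmn (legumain; 1.32 ± 0.29 (SE) and 1.10 ± 0.23 (SE) in 2 RLTR25B regions) and Mitf (the founding MiT/TFE factor; 1.33 ± 0.30 (SE) in LTR33A and 0.64 ± 0.20 (SE) in ORR1D2). By limma, the higher calls of this list numbered 0 without GrnKO replicate 1 and 2 without GrnKO replicate 2, and with the authors' scaling alone the lower calls numbered 0.

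**Figure D5:**
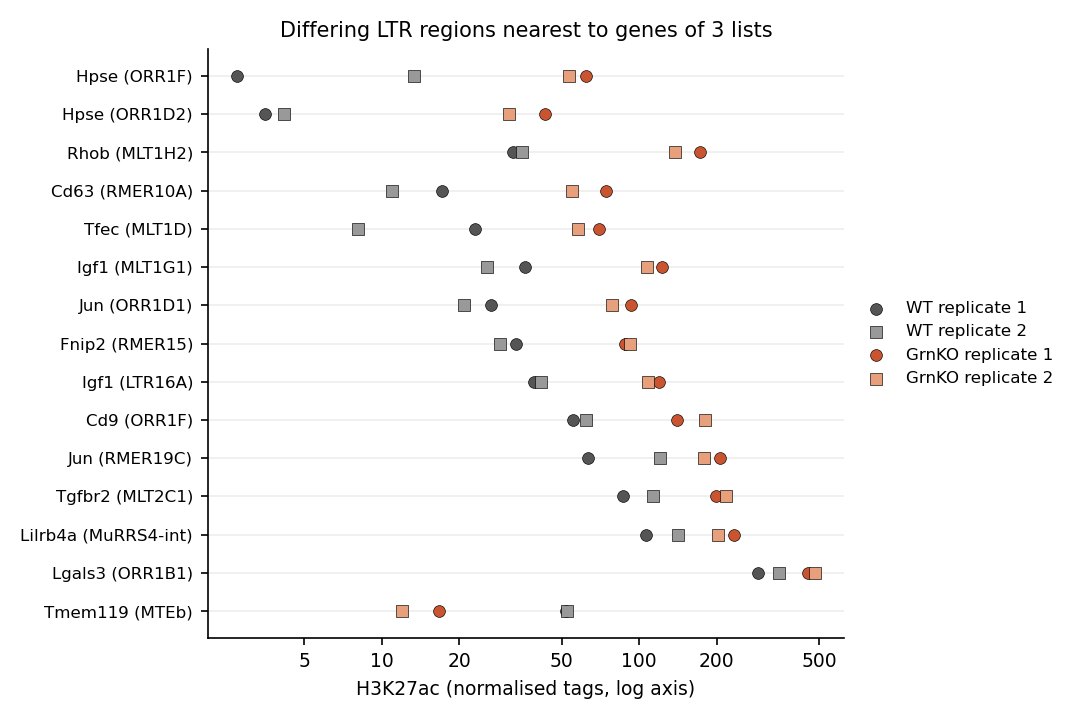
H3K27ac in normalised tags (horizontal log axis) in each library at called distal LTR regions named for the lysosome, disease-associated and homeostatic lists, ordered by log2 change. Points are single libraries, and GrnKO points lie to the right of WT points in all regions but the lowest in the plot, near Tmem119.

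Regions nearest to genes of the disease-associated microglial state, a set raised in microglia around damage, were called in 7 of 30 cases, all higher, near 5 genes, where 6.8% of all tested regions were higher and 2.92% lower. Other distal regions of this list had 86 higher and 0 lower calls among 362 (11 lower at an unadjusted limma p under 0.05, and 0 lower by edgeR and 1 by DESeq2), and the medians were 0.49 and 0.44. An MLT1G1 element 28.0 kb upstream of Igf1, a growth factor (chr10:87829833-87830633), held 36.0 and 25.7 normalised tags in WT and 123 and 107 in GrnKO (log2 change 1.88, SE 0.28, limma adjusted p = 2.97e-04). The LTR16A region overlapping it (chr10:87830425-87831225) held 39.1 and 41.6 normalised tags in WT and 119 and 108 in GrnKO (log2 change 1.47, SE 0.25, limma adjusted p = 0.00109). The ORR1F element near Cd9, a tetraspanin (chr6:125515759-125516559), held 55.5 and 62.3 normalised tags in WT and 140.0 and 179 in GrnKO (log2 change 1.41, SE 0.23, limma adjusted p = 5.82e-04). GrnKO libraries exceeded WT libraries without overlap in these regions. The MuRRS4-int element near Lilrb4a, an inhibitory receptor (chr10:51530178-51530978), held 106 and 142 normalised tags in WT and 233 and 202 in GrnKO (log2 change 0.82, SE 0.19, limma adjusted p = 0.0113). The ORR1B1 element near Lgals3, which encodes galectin-3 (chr14:47361307-47362107), held 290.2 and 349 normalised tags in WT and 453 and 482 in GrnKO (log2 change 0.55, SE 0.14, limma adjusted p = 0.0146). It was the strongest called region of this list and had a small change. The Cd63 region above belongs to this list too, and the seventh was an RMER6B element near Lgals3. The list had 2 calls without GrnKO replicate 1 and 3 without GrnKO replicate 2.

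Regions nearest to homeostatic microglial genes moved both ways. Of 69 tested, 13 were called, 5 higher near 3 genes and 8 lower near 6 genes, where 6.8% of all tested regions were higher and 2.92% lower, and the median was -0.09. Other distal regions of the list had 39 higher and 86 lower calls among 943, with a median of -0.16. The MTEb element near Tmem119, a microglial surface marker (chr5:113812467-113813267), held 52.0 and 52.6 normalised tags in WT and 16.7 and 12 in GrnKO (log2 change -1.81, SE 0.38, limma adjusted p = 0.00517). WT libraries were nearly equal and both GrnKO libraries were far below them. Lower regions outside the naming rule lay near Itgam (ORR1F, -1.64 ± 0.43 (SE)), Selplg (MT2A, -0.69 ± 0.16 (SE)), Cx3cr1 (ORR1D1, -0.58 ± 0.16 (SE)) and Tgfbr1 (LTR16C, -0.41 ± 0.11 (SE)). The higher ones were the MLT1H2 element near Rhob, 3 near Jun, an AP-1 subunit, and 1 in Tgfbr2, a TGF-beta receptor. The ORR1D1 region 159.7 kb from the start of Jun (chr4:95211569-95212369) held 26.6 and 21 normalised tags in WT and 93.3 and 78.4 in GrnKO (log2 change 1.81, SE 0.31, adjusted p = 9.34e-04 by limma), and the RMER19C region there (chr4:95214980-95215780) held 63.4 and 121 normalised tags in WT and 205 and 179 in GrnKO (log2 change 1.12, SE 0.25, limma adjusted p = 0.00729). The MLT2C1 element in intron 1 of 6 of Tgfbr2 (chr9:116137467-116138267) held 86.8 and 113 normalised tags in WT and 199 and 218 in GrnKO (log2 change 1.06, SE 0.20, limma adjusted p = 0.00199). GrnKO libraries were above WT libraries in these 3 regions. With the authors' scaling alone the list had 5 higher and 2 lower calls, and without GrnKO replicate 1 or 2 it had 2 and 3 higher calls and 1 lower call each.

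Interferon-response and antigen-presentation genes had few LTR regions. Of 10 tested regions near interferon-response genes 1 was called, an RLTR49 element in intron 1 of 8 of Aim2, a sensor of cytosolic DNA (chr1:173426441-173427241), with 32.1 and 30.9 normalised tags in WT and 64.2 and 64.8 in GrnKO (log2 change 1.01, SE 0.30, limma adjusted p = 0.0398). The groups did not overlap, and 1 of 10 is near the 9.71% of all tested regions that were called. None of 4 tested regions near antigen-presentation genes was called by limma, edgeR or DESeq2, and 0 had an unadjusted limma p under 0.05.

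Start regions of the genes that silence LTR retroelements were compared in the same fit. Of 34 listed genes, 29 had a tested region within 1000 bp of the start, 64 regions in all, and the median log2 change was 0.008, against -0.006 over all start regions. Of the 64, 1 passed, where 5.18% of all start regions did (3.57% higher and 1.61% lower), and 7 had an unadjusted p under 0.05. It lay at Dnmt3a, a DNA methyltransferase (chr12:3891709-3892509), with 113 and 181 normalised tags in WT and 220.1 and 237 in GrnKO (log2 change 0.67, SE 0.21, limma adjusted p = 0.0459). GrnKO libraries were above WT, and WT replicate 1 was the lowest. No region of the list was called with edgeR, DESeq2, the authors' scaling, or without either GrnKO replicate. Start regions of Trim28, Setdb1 and Dnmt1, the corepressor, the histone methyltransferase and the maintenance DNA methyltransferase, had log2 changes between -0.11 and 0.43, none past the threshold. None of 12 tested LTR regions nearest to genes of this list was called by limma, edgeR or DESeq2, with 3 at an unadjusted limma p under 0.05.

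Called LTR regions often lay beside other called regions. Within 10000 bp, 231 of the 356 higher regions (64.9%) had a region outside LTRs called in the same direction, and 89 of the 154 lower ones (57.8%) did. Among the 3939 tested LTR regions that were not called, 11.9% had a higher and 8.17% a lower such neighbour. Of all 7829 distal LTR regions, 2232 overlapped another listed region, so a neighbour can hold the same tags. No such share was taken for called regions outside LTRs, so this clustering is not shown to be particular to LTR regions. Calls also gathered by nearest gene, where A630001O12Rik had 4 of 4 tested LTR regions higher, in 3 separate runs. The ORR1E region there (chr8:126880913-126881713) held 105 and 90.6 normalised tags in WT and 272 and 289.5 in GrnKO (log2 change 1.52, SE 0.18, limma adjusted p = 4.02e-05). The MLT1G region (chr8:126872370-126873170) held 152 and 178 normalised tags in WT and 404 and 342 in GrnKO (log2 change 1.17, SE 0.16, limma adjusted p = 1.47e-04). The MTEa and MTC regions changed by 0.87 ± 0.17 (SE) and 0.62 ± 0.16 (SE). Near Socs6, a suppressor of cytokine signalling, 3 of 4 regions rose, between 1.5 and 2.11 on the log2 scale, and near Jun 3 of 8 rose, between 0.55 and 1.81. Among lower regions, Lrig3 had 3 of 5 (-1.23 to -0.89), Zfp648 3 of 4 in 1 run (-0.96 to -0.69) and Crim1 3 of 4 (-1.46 to -1.01).

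The LTR regions with the highest H3K27ac did not pass the test. The MLT1B region near Alg8, a glycosylation enzyme (chr7:97355995-97356795), held 1099 and 1032 normalised tags in WT and 915 and 1029 in GrnKO (log2 change -0.13, SE 0.10, limma adjusted p = 0.439). The RMER17C region near Ly6e, an interferon-inducible surface protein (chr15:74930919-74931719), held 855 and 745 normalised tags in WT and 712 and 817 in GrnKO (log2 change -0.07, SE 0.11, limma adjusted p = 0.779). The ORR1D2 region in intron 3 of 6 of Ppcdc, an enzyme of coenzyme A synthesis (chr9:57428767-57429567), held 752 and 799 normalised tags in WT and 701 and 801 in GrnKO (log2 change -0.05, SE 0.11, limma adjusted p = 0.834). The genotypes overlapped at Ly6e and Ppcdc, and at Alg8 GrnKO replicate 2 was only just below WT replicate 2.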

How the data were processed

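H3K27ac ChIP-seq and input libraries came from sorted brain nuclei of WT and GrnKO mice, 2 replicates each, in 1 table. The authors' values are signal, tags per region scaled to 10000000 tags per library, per the file headers. The deposited Peak Score was not used for any result. The submitters' processing notes name mm10, Bowtie2, HOMER and DESeq2, and their roles and versions, the origin of the region set and the handling of reads with several matches or of duplicates are not given in the sources used here. Multiplied by the library total and divided by 10000000, all values were whole read ends (2 per tag), within a tolerance of 0.00408 to 0.02 read ends that the rounding of the deposited values allows.

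All regions of the table were fitted together on the 4 H3K27ac libraries. Since the values are signal, limma 3.58.1 (R 4.3.3, trend) was used on log2(value + 1) after TMM scaling (edgeR 4.0.16), for 80728 regions that passed filterByExpr with a minimum of 10 tags, with Benjamini-Hochberg adjustment at 0.05. Fold changes are on this log2(value + 1) scale, which understates changes of weak regions. Counts were also tested on the recovered tags with edgeR's quasi-likelihood test, which called 455 of the distal LTR regions, and with DESeq2 1.42.0, which called 500. The models were tested on simulated data. Nothing in the labels separates the 2 replicates of a genotype beyond the pools of mice, so p-values measure only the spread between these samples.

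Regions were named by rule: the 8 smallest p in each direction, the 3 strongest, the first of each family, called regions nearest to listed genes (at most 6 per list), and nearest genes with most calls. Regions at RefSeq start windows, name groups such as RMER19, MT2 and IAP, and the motif search were chosen after values were seen. The members and lists were chosen with earlier results of these data known. RefSeq windows are of GRCm38.p6. Some regions that the naming rule chose are not reported here. Alternatives are given in the closing section.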

Additional observations from a re-analysis of the deposited data

How the results depend on the processing

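The count of 510 differing distal LTR regions stayed within 1.5 times under DESeq2 size factors (509), edgeR (455, of which 444 shared), DESeq2 (500), a pseudocount of 5 (566), a mean of at least 10 scaled tags (556), the authors' scaling (445), an adjusted p under 0.1 (728), a change of at least 2-fold (355), a distance over 5000 bp (446) and regions of high input left out (502). With non-overlapping regions only it was 334 (235 higher, 99 lower). Leaving out 1 library gave 91 to 856 regions (84 to 574 higher, 7 to 282 lower), where the lone library of a genotype is assumed to vary like the other group. The lower count was 20 with the authors' scaling, 265 at an adjusted p under 0.1 and 57 at 2-fold or more. With no filter limma called 0 (0 higher, 0 lower), with 1196 at an unadjusted p under 0.05. In that fit 1471 regions had no variance and the prior degrees of freedom were 2.12 instead of 16.2. edgeR with no filter, added after seeing the data, called 584 (416 higher, 168 lower).

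The median change was 0.204 with the authors' scaling. Silencing-gene start regions numbered 0 with the authors' scaling, edgeR, DESeq2, no filter, non-overlapping regions and 2-fold, 2 with the block or an adjusted p under 0.1, and 0 to 5 with 1 library left out. The difference in tag share was 0.415 points of the library total, -0.0587 over 5000 bp, -0.104 without overlaps and -0.0496 to -0.00127 with 1 library left out. Same-numbered replicates correlated at 0.050 and were not treated as pairs, and the replicate block gave 695 regions (455 higher, 240 lower), including all 510. The 3 regions with the strongest signal changed sign: Alg8 to 0.093, Ly6e to 0.16 and Ppcdc to 0.18 with the authors' scaling, Ly6e to between -0.16 and 0.034 with 1 library left out (above 0 without WT replicate 1 or GrnKO replicate 1), and Ppcdc to between -0.15 and 0.047 (above 0 without GrnKO replicate 1). Beyond what the settings themselves fix, the cause was not tested. The main fit had 2 libraries per genotype, and its filter on weak regions left out 3380 distal LTR regions. Of these, 611 were at or under the floor of 1.5 to 1.94 scaled tags in all H3K27ac libraries. The fits with no filter included the regions left out.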
